A study of Mus musculus with 32 samples.

Results

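The genes described here encode the proteins of the cytosolic ribosome, and their transcripts were counted in brain tumors of the GMYC and GTML mouse models. They were taken as the protein-coding genes whose symbol starts with Rpl or Rps and a number, together with Rplp0, Rplp1, Rplp2 and Rpsa, without the S6 kinase genes, Rps19bp1 and pseudogene symbols. Of the 37310 genes in the table, 83 met this rule. They comprised 31 genes of the small (40S) subunit, 41 of the large (60S) subunit, 3 of the acidic stalk and 8 paralogs that have a closely related parent gene. Fau and Rack1 encode ribosomal proteins under other symbols and were kept apart, and Rpl24 and Rpl41 were not analysed here. The rule uses gene symbols and no measured value.

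GMYC tumors arose in mice in which the transactivator tTA, made under the Glt1 promoter, switches on a MYC transgene behind a tetracycline response element, in the absence of doxycycline. GTML tumors arose in the corresponding model with the same promoter and a MYCN transgene, so Glt1-driven tTA was shared by every tumor, and the transgenic crosses were kept on the FVB/N strain. RNA of fresh-frozen tumor biopsies from 6 GMYC and 8 GTML tumors was sequenced on an Ion Torrent instrument, and reads were counted per gene. The study took up GMYC mice as a model of Group 3 medulloblastoma and compared them with GTML mice, and the question asked here is how the ribosomal protein transcripts differed between them. The study gives latencies for the models but not the age of the mouse behind each biopsy, the tumors carry no treatment label, and a biopsy holds the tumor with whatever normal cells it contained.

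A ribosome joins a small subunit, which reads the messenger RNA, to a large subunit, which links the amino acids, and the ribosomal proteins are needed in matched amounts. MYC and MYCN are transcription factors known to raise ribosome production through ribosomal protein genes, RNA polymerase I and assembly factors. Most ribosomal protein transcripts begin with a 5′ terminal oligopyrimidine (TOP) tract, a C followed by further C and T bases, through which mTOR and Larp1 control their translation.

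To look for this start signal, windows of 30 bases around annotated transcription starts are printed, 15 bases on each side. The run of C and T that holds the start base is in capitals. They are RefSeq promoter entries on GRCm38.p6, read in the direction of transcription. Rpl15, Rpl27a and Rps24 are the subunit genes with the smallest p in the comparison below, Rps6 is the S6 kinase substrate, and Rps27 stands beside its paralogs Rps27rt and Rps27l.
Rpl15: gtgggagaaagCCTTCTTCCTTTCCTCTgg
Rpl27a: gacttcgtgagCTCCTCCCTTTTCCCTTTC
Rps24: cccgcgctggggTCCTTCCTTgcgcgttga
Rps6: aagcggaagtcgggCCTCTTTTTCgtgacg
Rps27: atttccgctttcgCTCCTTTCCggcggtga
Rps27rt: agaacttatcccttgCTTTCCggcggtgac
Rps27l: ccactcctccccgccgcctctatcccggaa
The windows lie at chr14:18270972-18271001 (minus strand) for Rpl15, chr7:109519180-109519209 (plus) for Rpl27a, chr14:24490663-24490692 (plus) for Rps24, chr4:86857353-86857382 (minus) for Rps6, chr3:90213634-90213663 (minus) for Rps27, chr9:114982725-114982754 (minus) for Rps27rt and chr9:66946071-66946100 (plus) for Rps27l. The run was 17 bases long in Rpl15, 19 in Rpl27a as far as the window reached, 9 in Rps24 and Rps27, 10 in Rps6 and 6 in Rps27rt. In Rpl27a and Rps24 the annotated start base was a T inside the run, so these starts do not read as a C followed by pyrimidines. Another Rps24 entry, at chr14:24490738-24490767, had no run at its start. Rps27l, whose product is known as a p53 target, had a purine at the annotated start and no such run.

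A promoter entry, running from 250 bases before the start to 50 after it, was found for 63 of the 83 genes. The start base and the next 4 bases read C and then 4 pyrimidines, on the transcribed strand, in 14 of these genes (22.2%) and in 3.0% of all 27025 genes with an entry. Genes with such a start had a median log2 fold change (GTML over GMYC) of -0.33 and the other genes of -0.33. The E-box CACGTG, the motif that MYC and MYCN bind with Max, stood in 6 of 63 promoters (9.5%), against 8.1% of all. The ETS-type letters GGAAGT or ACTTCC stood in 46.0% against 26.5%, and TATAAA on either strand in 11.1% against 15.7%. The 6 genes with CACGTG had a median log2 fold change of -0.21 and the 55 tested genes without it of -0.34. Rpl14 was the only gene with CACGTG in its entry that passed the test below. In Rpl19 the motif began at -19 from the annotated start in the entry shown and at -233 in another entry. In Rpl23, which is not shown, it spanned the annotated start. The Rpl14 and Rpl19 stretches are printed with the motif in capitals.
Rpl14: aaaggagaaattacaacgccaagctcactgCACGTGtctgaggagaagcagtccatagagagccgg
Rpl19: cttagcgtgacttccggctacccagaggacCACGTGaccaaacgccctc
The Rpl14 stretch lies at chr9:120571319-120571384 and the Rpl19 stretch at chr11:98026661-98026709, both on the plus strand of GRCm38.p6 and upstream of the annotated start. These matches describe letters in a reference sequence and are no measure of binding in the tumors.

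The libraries held 6218000 to 7280000 counts in GMYC tumors and 4602000 to 6317000 in GTML tumors, as rounded values. Counts on the mouse genes Myc and Mycn set the labels apart. Myc lay between 33.4 and 165.5 CPM (counts scaled to a common library total) in GMYC tumors and between 2.60 and 8.68 CPM in GTML tumors. Mycn lay between 118.7 and 191 CPM in GTML tumors and between 7.65 and 34.4 CPM in GMYC tumors. Reads of a transgene and of the mouse's own gene were not told apart here. The tumors also fell into 2 sets by the percent of counts on small nucleolar RNAs. GMYC tumors 1 to 4 and GTML tumors 1 and 2 had over 0.3%, and they are the first 6 columns of the table. GMYC tumors 5 and 6 and GTML tumors 3 to 8 had less. The labels do not name this split, which was known from earlier work on these counts, so the values of the list, of its called genes described below and of the pseudogenes are also given within its sides. Most GTML libraries came from earlier work of the authors, and the labels do not tell which, so the model and the time at which a library was made cannot be told apart. The authors also left a single GTML tumor with an SHH-like signature out of some of their comparisons. The labels do not name it, and all GTML tumors were kept here. GTML tumors 1 and 2 stood apart from the other GTML tumors in the ribosomal protein genes, as described next.

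The 83 genes together took 0.878% ± 0.0790 (SD, n = 6) of all counts in GMYC tumors and 0.709% ± 0.130 (SD, n = 8) in GTML tumors. In GMYC tumors the lowest share was 0.778% and the highest 0.987%. In GTML tumors the shares ran from 0.537% to 0.918%. GTML tumors 1 and 2, at 0.918% and 0.860%, lay within the GMYC range, whereas GTML tumors 3 to 8, from 0.537% to 0.759%, all lay below the lowest GMYC tumor. The difference of the means was -0.169 percentage points. Within the 6 tumors with more small nucleolar RNA counts it was 0.0133 points, and within the 8 tumors with fewer it was -0.233 points. A bulk library cannot tell fewer cells of a type from less RNA per cell.

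**Figure D1:**
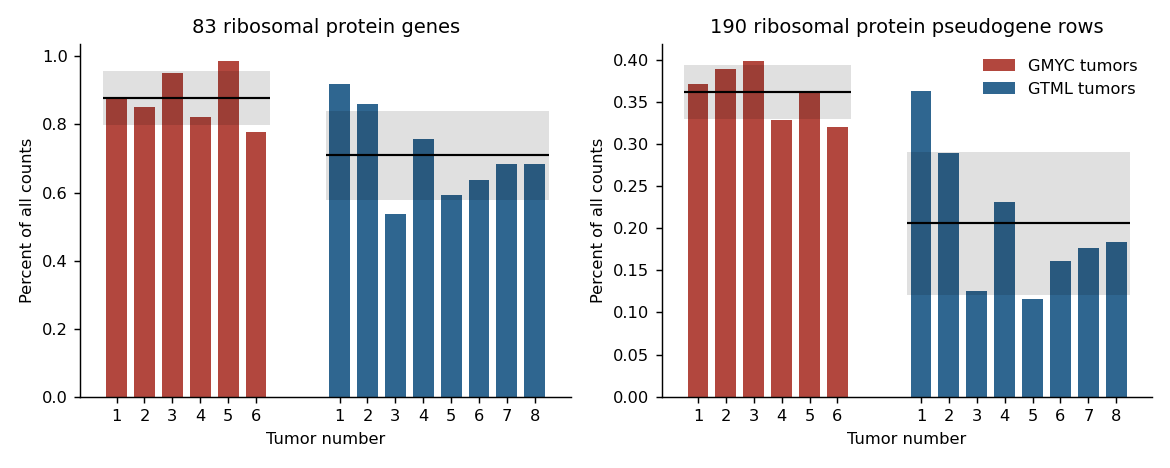
Percent of all counts on the 83 ribosomal protein genes (left) and on 190 annotated ribosomal protein pseudogene rows (right) in each of 6 GMYC and 8 GTML tumors. Bars are tumors, the black line is the mean of a model and the grey band its SD; GTML tumors 3 to 8 sit at 0.759% or less on the left, below every GMYC tumor.

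The counts were compared gene by gene with edgeR's quasi-likelihood test over the whole table, with Benjamini-Hochberg adjustment over the 21024 genes that had more than 1 CPM in at least 3 tumors. Of the 83 genes 81 were tested, and the paralogs Rpl10l and Rpl39l were too low. The log2 fold change (GTML over GMYC, given with its standard error, SE) was below 0 in 80 of 81 genes. Their median was -0.33, or 1.26-fold higher in GMYC tumors, against 0.04 over all genes tested and 0.06 over protein-coding genes. At an adjusted p under 0.05, 19 of 81 genes (23.5%) were higher in GMYC tumors, where 9.71% of all genes tested were. None was higher in GTML tumors with edgeR, where 11.5% of all genes were, nor with limma-voom or DESeq2, and 0 had an unadjusted p under 0.05 in that direction. Without adjustment 42 of 81 genes had p under 0.05. At an adjusted p under 0.01 alone 4 genes were higher in GMYC tumors, against 2.14% of all genes. At an adjusted p under 0.01 and a change beyond 1 on the log2 scale, 1 gene passed, Rps27l, where 1.1% of all genes passed.

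**Figure D2:**
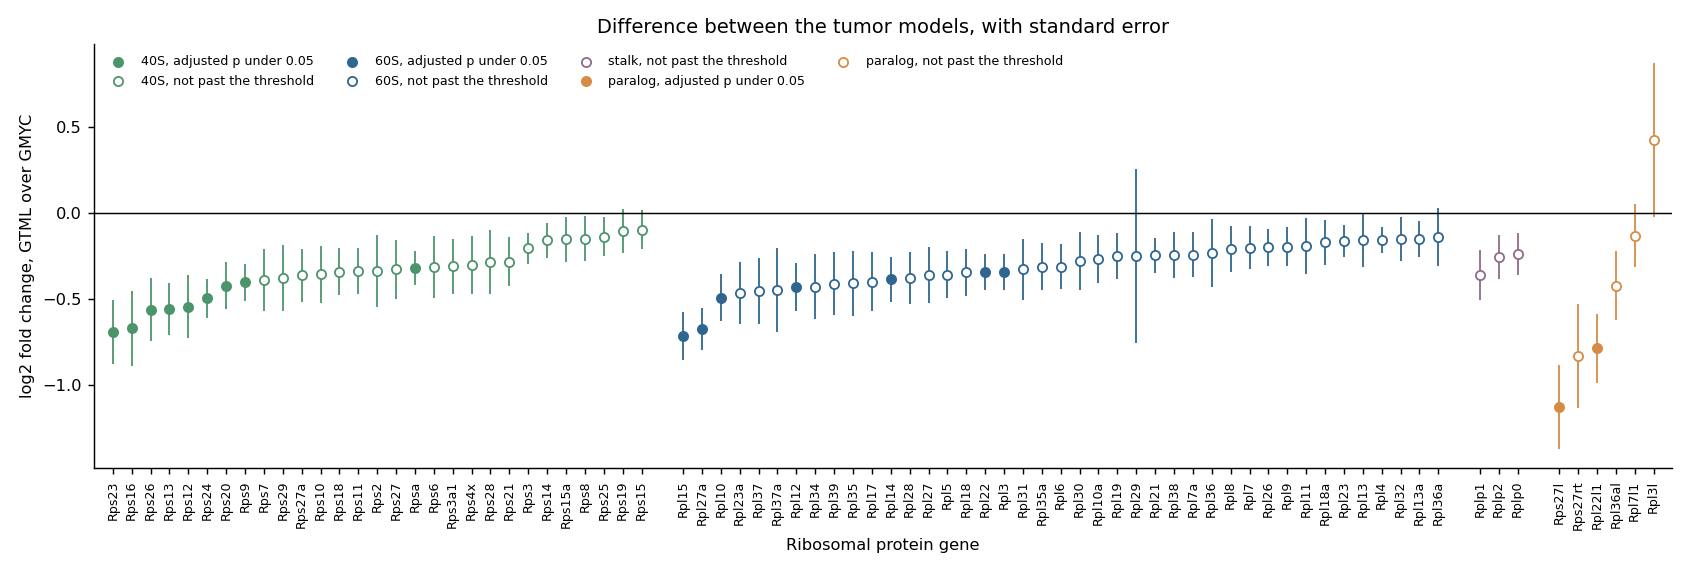
Log2 fold change, GTML over GMYC, of 79 of the 81 tested ribosomal protein genes with its standard error, by class. Filled points passed an adjusted p of 0.05 (edgeR quasi-likelihood test); all points but Rpl3l lie below 0 and most between -0.5 and 0.

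The sizes were narrow. In 70 of the 80 genes below 0 the log2 fold change lay between -0.5 and 0, and in 10 it was below -0.5, with Rps27l below -1. The medians of 40S and 60S genes were close, at -0.34 and -0.31. Of the 40S genes 10 of 31 passed (32.3%) and of the 60S genes 7 of 41 (17.1%), against 9.71% of all genes tested. None of the 3 stalk genes passed, with a median of -0.26. Among the 6 tested paralogs the median was -0.61 and 2 passed.

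The count of 19 rested on which GTML tumors were compared. Without GTML tumor 1 it was 37 genes and without GTML tumor 2 it was 34, where 11.3% and 15.1% of all genes were called. Without both it was 62 of 81, with a median of -0.47 and 17.4% of all genes called. Leaving out GMYC tumor 3 or 5 gave 8 genes, where 5.65% and 6.43% of all genes were called. Leaving out GMYC tumor 1 or GTML tumor 3, 5, 6, 7 or 8 gave 9 to 12, where 6.93%, 8.31%, 6.58%, 7.86%, 7.04% and 7.99% of all genes were called, so fewer of all genes were called in each of these fits as well. Within the tumors with more small nucleolar RNA counts (4 GMYC and 2 GTML) the median was 0.06, 24 of 80 genes had a log2 fold change below 0 and none was called by edgeR, where 0.0106% of all genes were and 4 of the 80 had an unadjusted p under 0.05. Within the tumors with fewer (2 GMYC and 6 GTML) the median was -0.50, 79 of 81 were below 0 and 17 were called, against 6.69% of all genes. With the split as a term in the fit the median was -0.22 and 8 genes were called, against 6.77%. The interaction of model and split was tested as well, and no gene of the list or of the whole table passed an adjusted p of 0.05, while 44 of 81 ribosomal protein genes (54.3%) and 15.1% of all genes had an unadjusted p under 0.05.

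**Figure D3:**
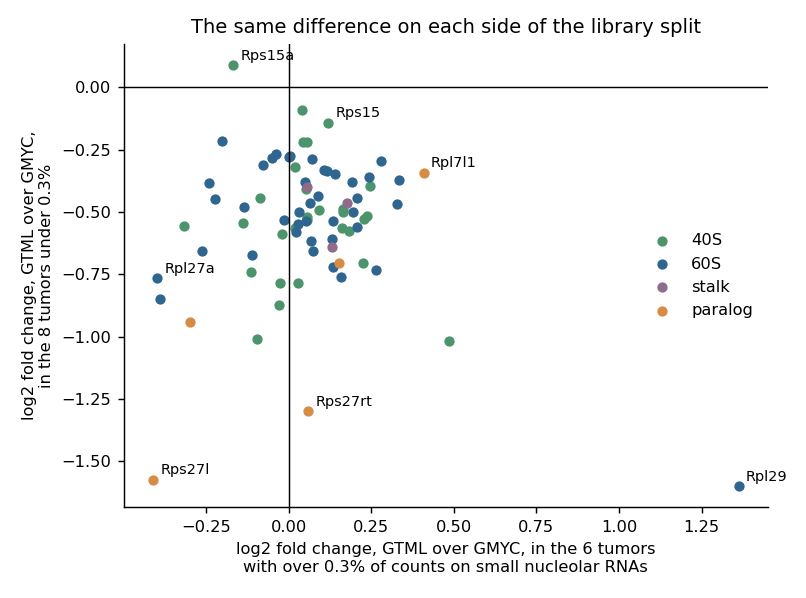
Log2 fold change, GTML over GMYC, of 78 of 80 ribosomal protein genes in the 6 tumors with over 0.3% of counts on small nucleolar RNAs (horizontal) and in the 8 tumors below that (vertical). The points scatter around 0 on the horizontal axis, where the 80 have a median of 0.06, and all but Rps15a lie below 0 on the vertical axis, where the median is -0.50.

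Transcript length moved with the difference. Protein-coding genes outside the list had a median log2 fold change of -0.27 where the coding transcript was at most 600 bases. It was -0.17 above 600 and up to 1000 bases, -0.11 above 1000 and up to 1500 bases and 0.18 above 5000 bases. Ribosomal protein transcripts are short, with a median of 887 bases against 2992 over tested protein-coding genes. In the same length classes their medians were -0.36 for 19 genes, -0.30 for 31 genes and -0.33 for 19 genes. The single longest, Rps15a, had -0.15. With the length trend over protein-coding genes removed, an alternative added after seeing the data, the median of the 81 genes was -0.17, and 66 of 81 stayed below 0.

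Some ribosomal protein genes were among those with the most counts per base. No protein-coding gene of at least 500 exon bases exceeded 1.27 counts per exon base in any tumor (mt-Nd5). Of these, Rps15 reached 1.08 and Rpl4 1.04. Rplp1 reached 1.24 and Rpl36 1.13, but they have 499 and 383 exon bases, and such shorter genes were left out of that maximum. In 26 of the 83 genes the highest tumor was above 0.5 counts per exon base. The 20 tested genes with the highest values, from 0.547 upward, had a median log2 fold change of -0.26 and 3 calls. The 20 with the lowest values, up to 0.289, had a median of -0.35 and 4 calls. Of all genes tested, 9.71% were called higher in GMYC tumors. Pearson's r of the log2 fold change with the log2 of the mean counts per exon base was -0.093 over the 81 tested genes. Over the 75 of them that are not paralogs it was 0.279. Whether duplicate reads were removed is not stated, and the part of the height of the counts in the differences was not tested.

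Levels are compared between genes only as CPM per kilobase of the annotated principal coding transcript, averaged over the 14 tumors. On this scale the tested genes had a median of 103.5, and the lowest was Rpl3l at 0.956. Near the top were Rps9 at 184.4, Rpl10a at 182.8, Rpl9 at 181.3 and Rpl4 at 179.8. At the low end above Rpl3l were Rpl35 at 15.1 and Rpl23a at 23.3, both of the large subunit near the exit of the peptide tunnel. Such levels depend on the transcript chosen, since Rps15a, at 29.9, is annotated with 5179 bases. They also leave out counts on pseudogene rows. Over the 14 tumors, rows named after Rpl23a held 4119 counts against 1140 on the gene. For Rpl35 these were 12 against 1251. The part of such rows in the levels was not tested.

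**Figure D4:**
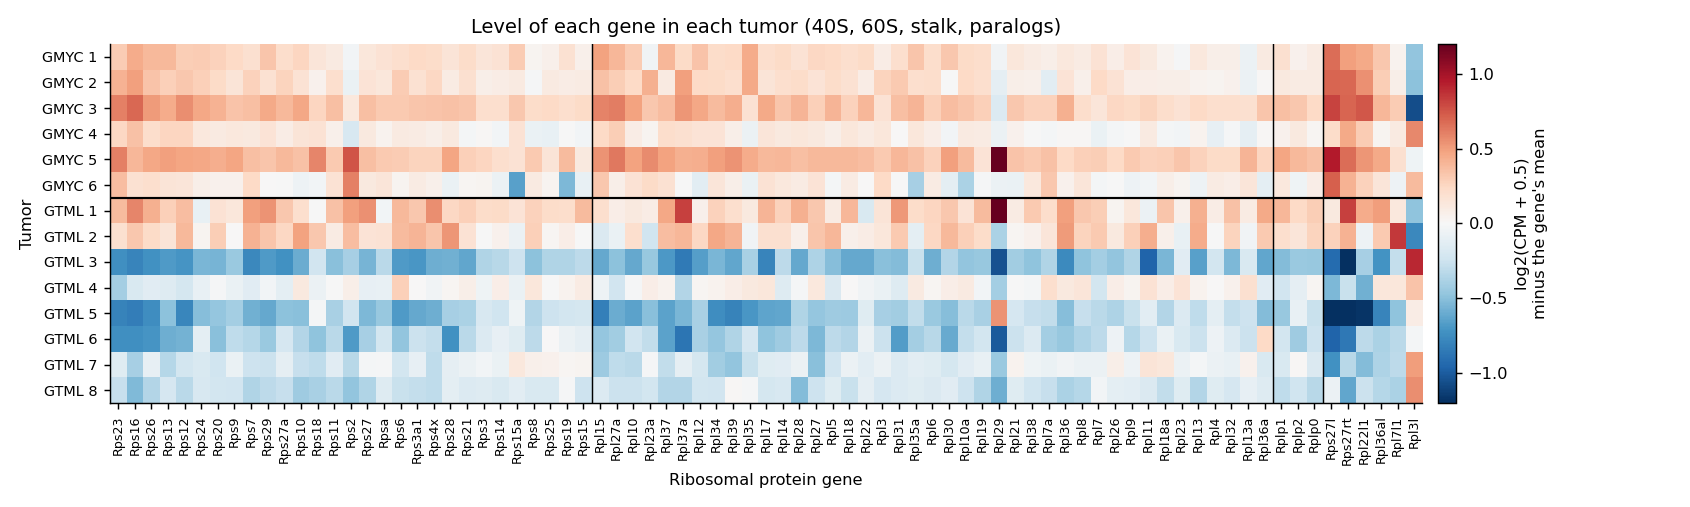
Level of 79 of the 81 tested ribosomal protein genes (columns, by class and then log2 fold change) in each of the 14 tumors (rows), as log2(CPM + 0.5) minus the mean of the gene. Red is above and blue below the mean, the black line divides GMYC from GTML tumors; GTML tumors 1 and 2 resemble GMYC tumors and GTML tumors 3, 5 and 6 are the lowest.

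The genes moved together from tumor to tumor. The median gene, on the log2(CPM + 0.5) scale and relative to the mean of each gene, stood highest in GMYC tumor 5 at 0.36 and GMYC tumor 3 at 0.33. It stood at 0.27 in GTML tumor 1 and 0.20 in GTML tumor 2. It was lowest in GTML tumor 3 at -0.52, GTML tumor 5 at -0.42 and GTML tumor 6 at -0.32. Pearson's r of a single gene with this median over the 14 tumors reached 0.99 for Rpl6 and was lowest for Rpl3l (-0.67), Rps15a (0.49) and Rpl29 (0.56). These correlations describe tumors that share libraries and depth, and each gene is part of the median.

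Of the small subunit, Rps24, a gene mutated in Diamond-Blackfan anaemia, was among the clearest. Its level was 97.4 CPM in the lowest, 113.6 in the median and 127.9 in the highest GMYC tumor, and 63.1, 83.3 and 94.5 CPM in GTML tumors. Every GMYC tumor therefore lay above every GTML tumor, with a log2 fold change of -0.50 (SE 0.11, adjusted p = 0.00953). Rpl15 was the other gene without overlap. This large subunit protein, another gene linked to Diamond-Blackfan anaemia, stood at 127.6, 144.7 and 163.1 CPM in the lowest, median and highest GMYC tumors and at 61.0, 87.7 and 124 CPM in GTML tumors, with a log2 fold change of -0.71 (SE 0.14, adjusted p = 0.00572). A complete separation of this kind was seen in 2 of 81 genes, and 2.48% of all genes tested had every GMYC tumor above every GTML tumor. Against GTML tumors 3 to 8 alone, 40 of the 81 genes were separated, where 8.08% of all genes were.

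Rpl27a had the smallest p of the list. It was at 108.6, 131.9 and 160.8 CPM in the lowest, median and highest GMYC tumors and at 68.3, 85.0 and 109.3 CPM in GTML tumors. The models overlapped only between the lowest GMYC tumor and the highest GTML tumor. The log2 fold change was -0.67 (SE 0.12, adjusted p = 0.00403). Rps23, which lies at the decoding center, had 67.5, 74.6 and 86.6 CPM in GMYC tumors and 32.3, 44.6 and 73.9 CPM in GTML tumors, with a log2 fold change of -0.69 (adjusted p = 0.0182). Rps16, at -0.67 (adjusted p = 0.0398), and Rps9, at -0.40 (adjusted p = 0.0165), also passed. In each of Rpl15, Rpl27a, Rps24, Rps23, Rps16 and Rps9 the log2 fold change was nearer 0 on the side with more small nucleolar RNA counts, at -0.39, -0.40, -0.32, -0.10, -0.028 and -0.14, than on the other side, at -0.85, -0.77, -0.56, -1.01, -0.87 and -0.54.

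Of the genes for small subunit assembly that are linked to anaemia, Rps26, at the mRNA exit channel, was called lower in GTML tumors as Rps24 was, with a log2 fold change of -0.56 (adjusted p = 0.0406). On the side with more small nucleolar RNA counts Rps26 stood at -0.0255 and on the other side at -0.79. Rps7 (-0.39) and Rps10 (-0.36) did not pass, with adjusted p of 0.123 and 0.127 by the same test. Rps19, the gene most often mutated in the anaemia, stood at 93.0, 148.6 and 175.4 CPM in the lowest, median and highest GMYC tumors and at 105, 135.5 and 156.8 CPM in GTML tumors. The GTML range lay within the GMYC range, and the log2 fold change was -0.11 (SE 0.13, adjusted p = 0.563). Rps14, the gene of the 5q- syndrome, had -0.16 (adjusted p = 0.253). Rpsa, also known as the laminin receptor, was lower in GTML tumors, with -0.32 (SE 0.10, adjusted p = 0.0307), and stood at -0.086 and -0.44 on these sides.

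Rps6, whose protein is phosphorylated by S6 kinase, spanned 93.9 to 114.3 CPM in GMYC tumors around a median of 109.5. In GTML tumors it spanned 56.9 to 120.3 CPM around 77.3, so the GTML tumors covered the whole GMYC range. Its log2 fold change of -0.31 did not pass (adjusted p = 0.214). Rps27a, which is made as a fusion with ubiquitin, had -0.36 (adjusted p = 0.0922). Rps15, a small subunit protein needed for export of the precursor particle, had 83.1, 93.7 and 104 CPM in the lowest, median and highest GMYC tumors and 71.4, 85.4 and 115.3 CPM in GTML tumors. Its log2 fold change was the smallest in size of all 81 genes, at -0.10 (SE 0.11, adjusted p = 0.55), and Rps15 is also among the genes nearest to the highest counts per exon base.

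Among large subunit genes, Rpl3 and Rpl10, which shape the peptidyl transferase center and the tRNA sites beside it, both passed. Rpl3 was at 184.6, 200.2 and 215.7 CPM in the lowest, median and highest GMYC tumors and at 122, 157.2 and 193.4 CPM in GTML tumors, with a log2 fold change of -0.34 (adjusted p = 0.0328). Rpl10, on the X chromosome, had a log2 fold change of -0.49 (adjusted p = 0.0213). In the tumors with more small nucleolar RNA counts Rpl3 stood at -0.013 and Rpl10 at -0.11, against -0.53 and -0.67 in those with fewer. The other X-linked genes, Rpl39, Rps4x and Rpl36a, had -0.41, -0.30 and -0.14 and did not pass. Rpl4, which lines the peptide tunnel, was at 257.4, 291.8 and 323.4 CPM in the lowest, median and highest GMYC tumors and at 236.4, 263.1 and 292.9 CPM in GTML tumors. Its log2 fold change of -0.16 (SE 0.08) did not pass (adjusted p = 0.145), nor did those of Rpl23 (-0.16) and Rpl38 (-0.24).

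Rpl5 and Rpl11 bind 5S ribosomal RNA, and free of the ribosome they bind Mdm2. Rpl5 was at 117.6, 140.1 and 158.6 CPM in the lowest, median and highest GMYC tumors and at 83.5, 104.1 and 158.2 CPM in GTML tumors, with a log2 fold change of -0.36 (adjusted p = 0.0682). Rpl11 had -0.19 (adjusted p = 0.39). Of 8 genes of p53 and this checkpoint, 2 were higher in GMYC tumors and 1 in GTML tumors, where 9.71% and 11.5% of all genes were. Cdkn2a, which encodes Arf, was at 2.62 ± 3.11 CPM (SD, n = 6) in GMYC and 38.2 ± 12.9 CPM (SD, n = 8) in GTML tumors (log2 fold change 3.87, adjusted p = 0.00172). Ccng1, a p53 target, had -0.82 (adjusted p = 0.0102) and Mdm2, which marks p53 for degradation, -0.24 (adjusted p = 0.0493).

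The stalk proteins, which recruit the elongation factors, did not pass. Rplp0 had a log2 fold change of -0.24 (adjusted p = 0.163), Rplp1 of -0.36 (adjusted p = 0.0854) and Rplp2 of -0.26 (adjusted p = 0.149). In each of these 3 genes GTML tumors 1 and 2 lay within the GMYC range, at 229.2 CPM or more for Rplp0, 82.0 CPM or more for Rplp1 and 81.0 CPM or more for Rplp2.

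Rpl29 was the most variable gene within the models, with an SD of 0.89 on the log2 scale. It reached 65.5 CPM in GMYC tumor 5 and 72.3 CPM in GTML tumor 1, and at most 17.5 and 26.5 CPM in the other tumors of each model. Its log2 fold change was -0.25 (SE 0.51, adjusted p = 0.741), and it changed sign to 0.31 without GMYC tumor 5.

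To show how far reads can tell paralogs from their parents, the first 60 coding bases of Rps27 and Rpl22 are given with those of their paralogs, from GENCODE M21 transcripts, with bases that differ from the parent at the same position in capitals.
Rps27: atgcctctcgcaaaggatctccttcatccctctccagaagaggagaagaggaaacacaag
Rps27rt: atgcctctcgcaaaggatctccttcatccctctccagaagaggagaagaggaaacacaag
Rps27l: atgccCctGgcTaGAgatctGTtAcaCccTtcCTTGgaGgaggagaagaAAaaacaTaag
Rpl22: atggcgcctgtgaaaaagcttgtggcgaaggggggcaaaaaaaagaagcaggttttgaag
Rpl22l1: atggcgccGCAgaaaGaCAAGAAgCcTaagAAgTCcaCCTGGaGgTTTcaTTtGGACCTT
Over the whole coding sequence Rps27rt matched Rps27 at 252 of 252 bases (100%), so counts of these 2 genes are uncertain, as coding reads of one match the other. Rps27l matched Rps27 at 192 of 252 aligned bases (76.2%) and Rpl22l1 matched Rpl22 at 257 of 366 (70.2%), which leaves many bases to tell them apart. Rps27 lies on chromosome 3, Rps27rt and Rps27l on 9, Rpl22 on 4 and Rpl22l1 on 3.

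Rps27l, a ribosomal protein that also takes part in the p53 response, had the largest change of the list. It was at 27.5, 38.7 and 45.9 CPM in the lowest, median and highest GMYC tumors and at 9.48, 15.01 and 28.6 CPM in GTML tumors. Only the lowest GMYC tumor lay below the highest GTML tumor. The difference amounted to -1.13 on the log2 scale (SE 0.24, adjusted p = 0.00785), and to -0.41 in the tumors with more and -1.57 in those with fewer small nucleolar RNA counts. Per base, the log2 ratio of Rps27l to its parent Rps27 was -0.93 ± 0.19 (SD, n = 6) in GMYC tumors and -1.77 ± 0.38 (SD, n = 8) in GTML tumors. The paralog was thus the lower of the pair in every tumor. The ranges overlapped, since GTML tumors 2 and 8 lay above the lowest GMYC tumor, and the ratios were not tested.

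Rpl22l1, which can replace Rpl22 in the large subunit, was at 40.3, 47.0 and 56.1 CPM in the lowest, median and highest GMYC tumors. In GTML tumors it was at 14.4, 25.9 and 45.5 CPM, with a log2 fold change of -0.79 (SE 0.20, adjusted p = 0.0146). The parent Rpl22 was lower in GTML tumors by less, with -0.35 (SE 0.10, adjusted p = 0.0298). With more small nucleolar RNA counts Rpl22l1 stood at -0.30 and Rpl22 at -0.24, and with fewer at -0.94 and -0.38. The log2 ratio of paralog to parent per base was -0.46 ± 0.11 (SD, n = 6) in GMYC and -0.96 ± 0.50 (SD, n = 8) in GTML tumors, and ranged from -1.80 in GTML tumor 5 to -0.10 in GTML tumor 1. These ranges overlapped, and the ratios were not tested.

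Rps27rt, a copy without introns, had 35.9, 40.4 and 43.8 CPM in the lowest, median and highest GMYC tumors and 9.98, 19.2 and 47.8 CPM in GTML tumors. The highest GTML tumor exceeded every GMYC tumor, and the log2 fold change of -0.83 did not pass (adjusted p = 0.0581). Its log2 ratio to Rps27 was -0.43 ± 0.08 (SD, n = 6) in GMYC and -1.08 ± 0.41 (SD, n = 8) in GTML tumors. GTML tumors 1 and 2, at -0.51 and -0.54, lay just below the lowest GMYC tumor at -0.49, so the models were only narrowly apart. As coding reads of either gene match the other, this ratio is uncertain, and it was not tested. Rpl36al, which matches Rpl36a at 87.7% of coding bases, had a ratio of -2.02 ± 0.11 in GMYC and -2.33 ± 0.27 in GTML tumors. For Rpl7l1 and Rpl7 the ratio was -1.68 ± 0.15 and -1.66 ± 0.31, a difference smaller than the SD of either model.

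**Figure D5:**
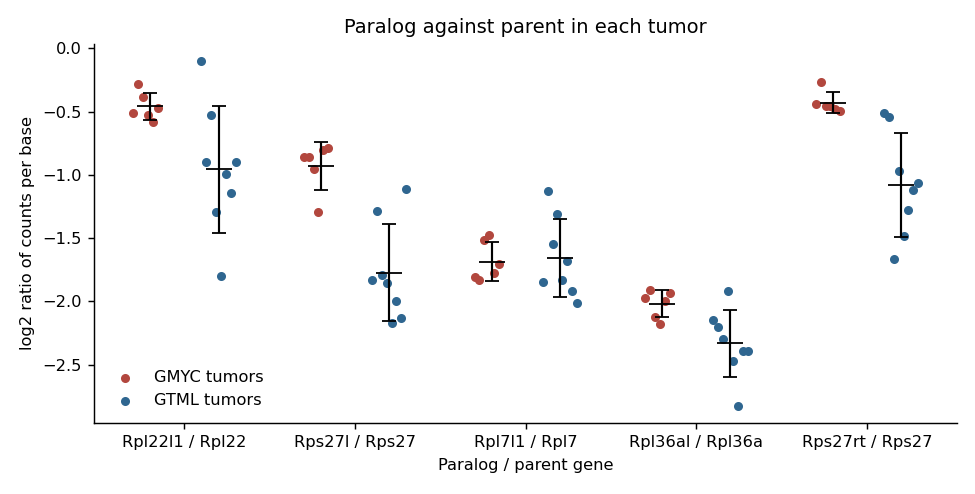
Log2 ratio of paralog to parent counts per base of the coding transcript in each tumor (points), with mean and SD (bars) for 6 GMYC and 8 GTML tumors. Rps27l and Rps27rt have a lower mean against Rps27 in GTML than in GMYC tumors, while Rpl7l1 against Rpl7 is at -1.68 and -1.66.

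Rpl3l, a muscle form of Rpl3, was the only tested gene with a positive log2 fold change, at 0.42 (SE 0.45, adjusted p = 0.505). It was near the limit of detection, from 0.306 to 2.02 CPM in GMYC and from 0.488 to 2.66 CPM in GTML tumors. Rpl10l, a testis form of Rpl10, was at 0 in every GMYC tumor and at most 0.166 CPM in a GTML tumor. Rpl39l stayed at or below 0.431 CPM.

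Processed copies of ribosomal protein genes were also counted. The table held 190 rows with the symbol of a parent followed by -ps and a number, from 53 parents, and 156 were tested. Of these, 87 (55.8%) were higher in GMYC tumors and 1 in GTML tumors, where 9.71% and 11.5% of all genes tested were. Their median log2 fold change was -0.84. On the 2 sides of the split 147 were tested, with medians of -0.24 where small nucleolar RNA counts were more and -1.03 where they were fewer. They took 0.361% ± 0.0318 (SD, n = 6) of counts in GMYC and 0.206% ± 0.0846 (SD, n = 8) in GTML tumors, again with GTML tumors 1 and 2 the highest of their model, at 0.363% and 0.289%. The ratio of counts on the 83 genes to those on the pseudogene rows was 2.43 ± 0.175 in GMYC and 3.72 ± 0.801 in GTML tumors. With pseudogene counts added to the parent, 36 genes were called, against 9.77% of all genes, and the median was -0.42. The 28 tested genes with no pseudogene row had a median log2 fold change of -0.31 and 5 calls. The 25 genes with 1 or 2 rows had -0.35 and 9 calls, and the 28 with 3 rows or more had -0.32 and 5 calls. Of all genes tested, 9.71% were called in this direction. The part of the pseudogene rows in the differences was not tested.

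The other genes of the pathway were read from the same fit. Fau and Rack1 had log2 fold changes of -0.37 and -0.12, and neither passed by edgeR, with unadjusted p of 0.0418 and 0.238. Of 21 tested TOP transcripts outside the ribosome, 10 (47.6%) were higher in GMYC tumors, where 9.71% of all genes tested were. None was higher in GTML tumors, where 11.5% of all genes were, and the median was -0.32. The 3 with the smallest p were Nap1l1, a histone chaperone, at -0.48 (adjusted p = 0.00276), Btf3, of the nascent chain complex, at -0.68 (adjusted p = 0.00563), and its partner Naca at -0.45 (adjusted p = 0.00974). Mitochondrial ribosomal proteins gave 10 of 31 (32.3%) higher in GMYC tumors, against the same 9.71%, and a median of -0.38. They were led by Mrps12 at -0.81 (adjusted p = 0.00396).

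Genes of ribosome production outside the ribosome itself were read in the same way. Of 35 assembly factors 4 were higher in GMYC tumors, with a median of -0.17 and a share of 11.4% against 9.71% of all genes. Bop1, of the complex that processes large subunit RNA, had -0.71 (adjusted p = 0.00884), the helicase Ddx21 -0.44 (adjusted p = 0.0232) and fibrillarin (Fbl), which methylates ribosomal RNA, -0.52 (adjusted p = 0.0242). Of 13 genes of RNA polymerase I and its factors 1 passed, the initiation factor Rrn3, at -0.41 (adjusted p = 0.0146). That share of 7.69% was below the 9.71% of all genes. Of 14 genes of TOP and S6 kinase control, 1 was higher in GMYC and 2 in GTML tumors, where 9.71% and 11.5% of all genes were. Larp4, which binds poly(A) tails, had -0.61 (adjusted p = 0.00494), whereas Tsc1, an inhibitor of mTORC1, had 0.52 (adjusted p = 0.00904) and Rptor, a subunit of mTORC1, 0.46 (adjusted p = 0.0302).

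The genes whose pattern over the 14 tumors was most like that of the median ribosomal protein gene were Eef1g, of the elongation factor complex, with Pearson's r of 0.99, Ppp1r14b with 0.97, the tRNA export factor Xpot with 0.97, and Gm11808 and Hist1h2an with 0.96 each. Their log2 fold changes were -0.40, -0.57, -0.47, -0.65 and -0.71, and the adjusted p of the first 3 was 0.043, 0.043 and 0.035. The last 2 did not pass.

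Markers of cell types in a cerebellar biopsy were read beside the ribosomal protein genes. Over all genes tested, 9.71% were higher in GMYC and 11.5% in GTML tumors, and the marker lists are short. Of 4 tested erythroid genes 3 were higher in GMYC tumors, with a median log2 fold change of -1.96, and the summed erythroid level was 47.0 to 147.5 CPM in GMYC and 39.6 to 132.9 CPM in GTML tumors. Of 6 photoreceptor genes 4 were higher in GTML tumors, with a summed level of 168.3 CPM in GTML tumor 2, of 654 to 1249 CPM in the other GTML tumors and of 458.6 to 615.5 CPM in GMYC tumors. Of 5 proliferation genes 2 were higher in GMYC tumors, with sums of 1409 to 2554 and 1404 to 1898 CPM. All 5 had a log2 fold change below 0. Of 5 tested granule neuron genes 2 were higher in GMYC tumors. None of the 7 astrocyte genes passed by edgeR, with an unadjusted p under 0.05 in 2 and a log2 fold change below 0 in all 7. Their sums were 802.8 to 1376 CPM in GMYC and 539.5 to 965.2 CPM in GTML tumors. None of the 4 Purkinje cell genes passed by edgeR, with an unadjusted p under 0.05 in 2 and a log2 fold change below 0 in all 4. Of the microglia, oligodendrocyte and endothelium lists, 1 gene each passed, in GMYC, GTML and GTML tumors, and of the 5 tested medulloblastoma genes, which summed to 628.1 to 756.8 CPM in GMYC and 539.9 to 770.8 CPM in GTML tumors, 1 passed in each direction. No marker in the table was at 0 in all tumors. The part of these cells in the ribosomal protein differences was not tested.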

How the data were processed

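The authors sequenced 6 GMYC tumors, set them beside 8 GTML tumors of which most had been generated earlier, aligned reads to mm9 with STAR in a two-pass approach and then Bowtie2, and counted reads per gene with featureCounts of Subread. The submitters' processing notes give STAR 2.4.0, Bowtie2 2.2 and Subread 1.5.2. The authors deposited raw counts per gene, whole numbers that were not normalized. Strand, duplicate and multi-mapping settings are not given in the sources used here. The 14 tumor columns match sample titles. A second table of cell lines has 18 columns whose names match no label and was not used here.

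Symbols, lengths and coding sequences came from GENCODE M21 (GRCm38) by gene ID, matching 87.4% of 37310 genes, and promoters from RefSeq. No mm9 coordinates are given. Genes with over 1 CPM in at least 3 tumors were tested with edgeR 4.0.16 in R 4.3.3 (TMM, glmQLFit, glmQLFTest, Benjamini-Hochberg), and the standard error is the log2 fold change over the square root of F. limma 3.58.1 (voom) and DESeq2 1.42.0 were alternatives, as were the filter, normalization, thinning to the shallowest tumor, the split, the replicate block, pseudogene counts and leaving out tumors. The method was tested on simulated data. Figures were drawn with matplotlib 3.10.9 and coding sequences aligned with Biopython 1.88. No 2 tumors of a model agreed within counting error (lowest chi-square over degrees of freedom 6.23). Where nothing says that tumors came from separate mice, p-values measure the spread between these samples.

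The members and lists were chosen with earlier results of these data known. Named genes were the markers Rpl4 and Rps15, role genes, paralog pairs, the 5 called genes with the smallest p in each direction, the 3 with the most and the fewest counts per exon base, the 3 with the largest SD within the models, and of other lists the 3 with the smallest p. Rps23, Rps16, Rps9, Rps15a, Rpl6, Rpl9, Rpl10a, Rpl14, Rpl19, Rpl23a and Rpl36 were named after their values were seen. Some genes that this rule names are not reported here.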

Additional observations from a re-analysis of the deposited data

Results flagged for a closer look

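In 86 groups of tumors (the percent of counts on the ribosomal protein genes, that on their pseudogenes, the ratio of both and the CPM of 40 named genes, each in GMYC and in GTML tumors), the highest or lowest tumor was set against the nearest other one. The gap exceeded Dixon's critical value in 4 of them, and chance alone would flag about 4.3. Rpl29 stood out in both models. In GMYC tumors the gap took 0.971 of the range, with 65.5 CPM in tumor 5 and 17.5 CPM in the next. In GTML tumors it took 0.718, with 72.3 CPM in tumor 1 and 26.5 CPM in the next. Rpl7l1 was at 204.4 CPM in GTML tumor 2 and 124.8 CPM in the next tumor, a gap of 0.645 of the range. Rpl22 was lowest in GTML tumor 3, at 134.6 CPM with the next at 181.5 CPM, a gap of 0.547. No cause was tested.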

How the results depend on the processing

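The number of ribosomal protein genes called higher in GMYC tumors was 19, and none was called higher in GTML tumors under any alternative. The count was 20 with limma-voom and 21 with DESeq2. It was 19 without TMM, with TMM computed without ribosomal genes, with filterByExpr and with protein-coding genes only. It was 16 with thinned counts, 13 without a filter and 17 in tumors with fewer small nucleolar RNA counts. Of all genes tested, 2041 were called higher in GMYC tumors in the main fit, 2388 with limma-voom and 2547 with DESeq2. This number was 2061 without TMM, 2076 with TMM computed without ribosomal genes, 1897 with filterByExpr and 1360 with protein-coding genes only. It was 1779 with thinned counts and 1629 without a filter. The filters also changed which genes were tested. The count of ribosomal protein genes moved to 8 with the split as a term, 0 in tumors with more small nucleolar RNA counts and 36 with pseudogene counts added. It was 4 at an adjusted p under 0.01, 2 of the 9 genes below 0.2 counts per exon base and 62 without GTML tumors 1 and 2. Leaving out 1 tumor gave 8 to 37 genes, lowest without GMYC tumor 3 or 5 and highest without GTML tumor 1. It gave 9 without GTML tumor 5, 10 without GTML tumor 3, 11 without GMYC tumor 1 or GTML tumor 8, 12 without GTML tumor 6 or 7 and 34 without GTML tumor 2.

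In tumors 1 to 6 of both models, 7 genes were called without and 0 with the replicate block, against 1054 and 90 of all genes higher in GMYC tumors. The numbers do not pair the tumors, since 1 of 6 same-numbered pairs correlated above 0.1 and 1 was the best match. The block with 21 genes at an unadjusted p under 0.05 left a median of -0.34.

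The median log2 fold change was -0.33 and ranged from -0.39 to -0.29 with 1 tumor left out. It reversed to 0.055 in tumors with more small nucleolar RNA counts, where the difference in percent of counts reversed to 0.0133 from -0.169 (-0.199 to -0.144 with 1 tumor left out). On the scale of mean log2 CPM that difference was -0.37. The split, the fits without GTML tumors 1 and 2, protein-coding genes only, the length trend and the unblocked fit of tumors 1 to 6 were chosen with the data seen. The cause of these shifts was not tested.

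Named genes reversed in the tumors with more small nucleolar RNA counts as follows: Rpl4 2e-04, Rps15 0.12, Rplp0 0.18, Rplp1 0.13, Rplp2 0.055, Rpl5 0.033, Rpl11 0.072, Rps27a 0.056, Rps6 0.16, Rps19 0.042, Rps14 0.045, Rps7 0.23, Rps10 0.091, Rpl38 0.088, Rps4x 0.24, Rpl36a 0.28, Rpl39 0.074, Rpl7l1 0.41, Rpl36al 0.15, Rps27rt 0.059, Rps27 0.18, Rpl7 0.19, Rps3a1 0.16, Rps12 0.028, Rpl34 0.14 and Rpl29 1.36. Of the genes named after their values were seen, these reversed there as well: Rpl6 0.066, Rpl9 0.11, Rpl10a 0.0032, Rpl14 0.022, Rpl19 0.12 and Rpl36 0.33. Rps12 and Rpl14, which were called in the main fit, stood at -0.79 and -0.58 in the tumors with fewer such counts. With the split as a term, Rpl3l was -0.0779 and Rpl7l1 0.0092. With 1 tumor left out Rpl29 ranged from -0.87 to 0.31, the highest without GMYC tumor 5. The cell line comparisons were not run.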
